A study of Sus scrofa with 6 samples.

Results

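Blood endothelial cells of the piglet ileum were picked from the single-cell libraries by their counts of a few genes. A barcode was kept where it held at least 1000 UMIs (unique molecular identifiers, each marking 1 captured RNA molecule) and 500 genes, at least 3 UMIs of PECAM1, FLT1 and ADGRL4 together, and more of these than of the lymphatic genes MMRN1, LYVE1 and TBX1. It also had to hold fewer than 20 UMIs of the collagen genes COL3A1, COL1A1 and COL1A2, at most 1 of the leukocyte gene PTPRC, and fewer than 10 of the epithelial genes EPCAM, KRT8 and VIL1. The rule kept 449 of 76099 barcodes that passed the depth limits, and 442 of the 449 came from days 0, 1 and 3 after birth. Their values on these 3 days are given here as UMIs per 10000 UMIs summed over the kept cells of a library, called the level.

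The study followed the ileum from birth to day 21 with 1 library of the 10x Chromium system on each of days 0, 1, 3, 7, 14 and 21, and 5 piglets per age by its methods. The sample labels and the methods name the ileum, which is used here, whereas the design text of the series names the cecum. Piglets were full-term offspring of Large White sows, were labelled male, and were fed maternal milk at every age. The mucosa was scraped, and cells were released with EDTA and then TrypLE. No treatment or genotype differed between ages, so age was the comparison. Because each age has 1 library, age, library and the piglets behind it cannot be told apart, no p-value is given, and every 95% interval covers counting error only.

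Blood endothelial cells line arteries, capillaries and veins. In the intestine the capillaries of the villus carry absorbed water-soluble nutrients away and have fenestrae, small pores closed by a diaphragm built from the protein PLVAP. Venules of the mucosa are where leukocytes leave the blood, by rolling on selectins and MADCAM1 and then binding firmly to ICAM1 and VCAM1 after chemokines have activated them.

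The 6 libraries held between 77391932 and 100348769 UMIs. Any 2 libraries shared between 31 and 68 barcodes past the depth limits, and 0 of the cells described here had a barcode that was also kept in another library, although 4 had one that passed the depth limits elsewhere. The labels call all piglets male, but LOC110257905, a gene that the reference Sscrofa11.1 places on chromosome Y, did not follow that label evenly. Its UMIs were found in 47.4% of all barcodes past the depth limits on day 0 and in 82.7%, 14.3%, 17.9%, 20.5% and 63.8% on days 1, 3, 7, 14 and 21. Among the blood endothelial cells it was found in 96 of 199, 164 of 215 and 2 of 28 on days 0, 1 and 3, and EIF1AY, a second Y-linked gene, in 33, 54 and 0. The part of this difference in any comparison between ages, that of days 0 and 1 included, was not tested.

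The rule kept 199 cells on day 0, which was 1.84% of the 10836 barcodes past the depth limits (exact 95% interval 1.59 to 2.11). On day 1 it kept 215 of 11494, or 1.87% (1.63 to 2.14), and on day 3 it kept 28 of 11361, or 0.246% (0.164 to 0.356). Days 7, 14 and 21 held 4 of 12634, 2 of 15956 and 1 of 13818. The first days lay side by side and day 3 lay below them, as the plot of shares by age shows, and the share depends on the other cells of each library as well. Leukocytes, taken as barcodes with at least 2 PTPRC UMIs, numbered 3264, 4841 and 7627 on days 0, 1 and 3, and fibroblasts 197, 273 and 161.

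**Figure D1:**
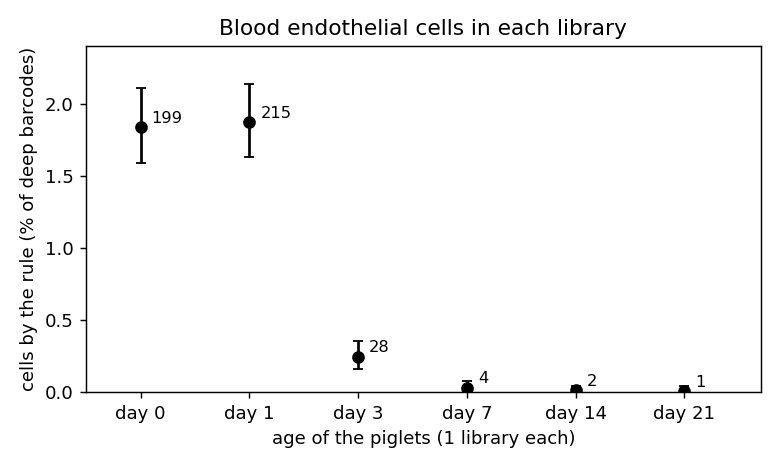
Cells kept by the rule as a percentage of the barcodes past the depth limits (vertical axis) in the 1 library of each age (horizontal axis), with exact 95% binomial intervals and the number of cells beside each point. Days 0 and 1 sit at 1.84% and 1.87%, day 3 at 0.246%, and the later ages near 0.

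Barcodes with at least 3 UMIs of the 3 endothelial genes numbered 277, 351 and 66 on days 0, 1 and 3, and the limit on PTPRC removed 30, 64 and 38 of them. The kept cells had a median of 5712, 7216 and 6500.5 UMIs. At the limit itself, the cells with exactly 3 UMIs of the rule genes had a median of 16 UMIs over 24 other endothelial genes on day 0 (11 cells), 0 on day 1 (6 cells) and 1 on day 3 (2 cells). Just outside, with 2 UMIs, the medians were 3, 0 and 0 over 25, 34 and 20 barcodes. Of the 4 cells of day 7, 2 held 42 and 68 UMIs of the 24 genes, with 9 and 17 of PLVAP. The other 2 held 1 and 5 with 0 of PLVAP, and 25 and 16 UMIs of B and plasma lineage genes. The 3 cells of days 14 and 21 held at most 1 UMI of the 24 genes and between 9 and 41 of the B and plasma lineage genes.

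The label held for most of the kept cells. PLVAP, which the rule did not use, had levels of 35.4, 29.2 and 28.0 on days 0, 1 and 3, against 2.22 and 0.834 in the lymphatic endothelial cells of days 0 and 1 and 2.22, 1.51 and 2.48 in fibroblasts. CDH5, the cadherin of endothelial junctions, was at 3.42, 4.50 and 4.01, KDR, the main VEGF receptor, at 3.58, 2.50 and 2.53, and TEK, the angiopoietin receptor, at 2.13, 2.20 and 1.69. Of the 24 endothelial genes fixed outside the rule, 13 lay above every other class on each day and 22 were at least 10 times the leukocyte level. The lymphatic class had 0 cells on day 3, so it was compared on days 0 and 1 only. KDR was not among the 13, at 2.50 on day 1 against 3.29 in the lymphatic cells. PLVAP was found in 92.5%, 94.0% and 85.7% of the cells on days 0, 1 and 3, at medians of 5712, 7216 and 6500.5 UMIs, and in 15.1%, 8.49% and 3.64% of the leukocytes, at medians of 3635, 4249 and 4618. At least 3 UMIs of the 24 genes were found in 197 of 199, 210 of 215 and 24 of 28 cells.

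**Figure D2:**
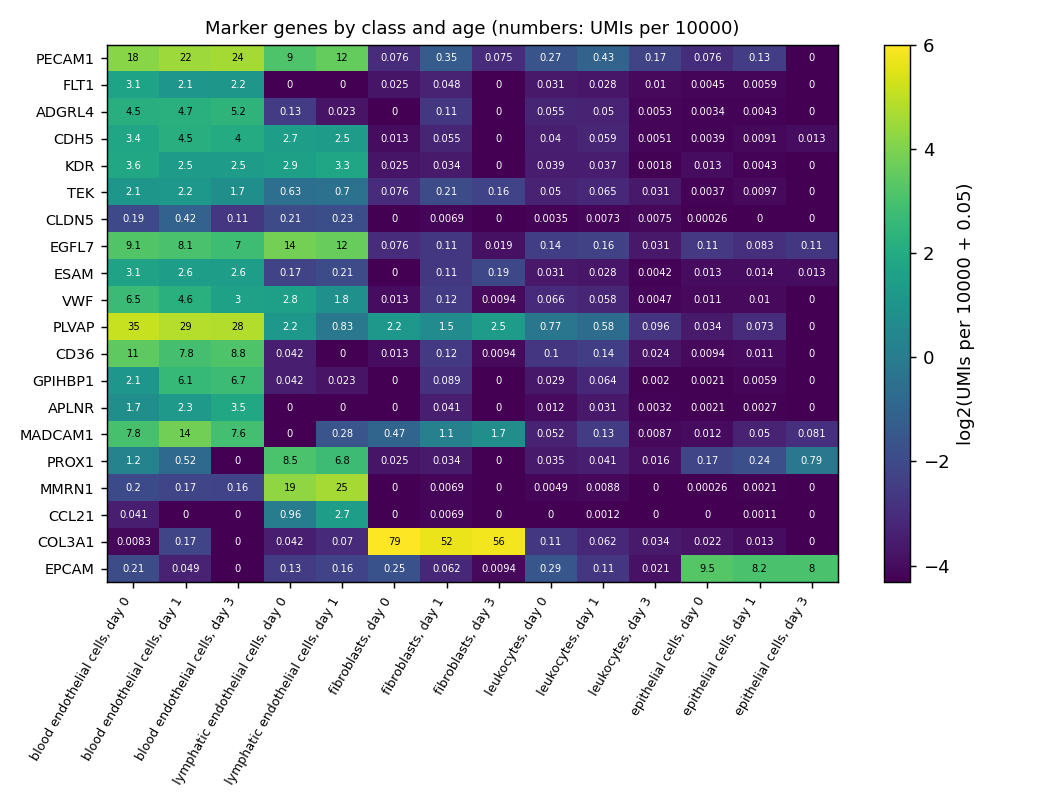
Levels of marker genes (rows, UMIs per 10000 as numbers, colour on a log2 scale with 0.05 added) in blood endothelial cells and 4 other classes of the same libraries on days 0, 1 and 3 (columns). PECAM1, FLT1 and ADGRL4 chose the blood endothelial cells, and PLVAP, at 35.4, 29.2 and 28.0, is a gene the rule did not use. The lymphatic class had 0 cells on day 3.

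The rule genes themselves are given as a description. PECAM1, an adhesion protein of endothelial contacts on chromosome 12 (Sscrofa11.1, 14667643 to 14723296), had levels of 17.9, 22.2 and 24.1. FLT1, a VEGF receptor that holds ligand back from KDR (chromosome 11, 5620698 to 5797095), had 3.09, 2.07 and 2.17, and ADGRL4, an adhesion receptor (chromosome 6, 134362714 to 134462697), had 4.51, 4.66 and 5.18. PECAM1 gave the most UMIs of the 3. CCL14, a chemokine named as a further marker, was at 1.45, 0.758 and 0.634. By the limits set below for a fall, it was lower on day 3 than on day 0. Without clusters 6 and 7, described below, it was also lower on day 1 than on day 0. Leaving out the rule gene ADGRL4, the 5 genes with the highest ratio to all other barcodes were TM4SF18 (320-fold), GPIHBP1 (308-fold), CLEC1A (284-fold), APLNR (260-fold) and FAM167B (253-fold), and these ratios were fixed in part by the choice of cells.

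The 442 cells of days 0, 1 and 3 fell into 7 clusters when the rule genes were left out of the clustering. Clusters are named by number and by their leading genes, and their genes and sizes are a description. Cluster 1 (145 cells; 108, 35 and 2 on days 0, 1 and 3) was led by APOC2, IGFBP6, CLDN3 and CCL14, with PLVAP at 48.5. Cluster 2 (87 cells; 8, 67 and 12) was led by ENPP6, RSAD2, ADM5 and GBP1, and its summed level of interferon-stimulated genes was 83.3, against 31.8 in cluster 1 and 77.2 in cluster 3. At a coarser setting these 2 clusters were joined into one of 242 cells.

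Cluster 3 (68 cells; 35, 24 and 9) was led by FABP4, a fatty acid carrier of capillary endothelium, NEBL, TMEM100, CXCL12, SEMA3G, AQP1 and HEY1, a target of Notch. FABP4 was at 5.10 there against 0.0324 in the other cells, and CXCL12, a chemokine that holds cells bearing CXCR4, at 8.61 against 0.691. In cluster 3 the capillary list summed to 56.4, against 70.1 in cluster 1 and 67.8 in cluster 2. GPIHBP1 was at 13.9, GJA4, a gap junction protein of arteries, at 7.07, and the arterial list summed to 27.3. The next highest sum of the arterial list was 20.4, in cluster 6, described below. GJA4 was not particular to cluster 3 either. It was found in 73.3% of all cells with a UMI of PROX1, a leading gene of cluster 6, against 24.0% of the others. Pericyte and smooth muscle genes summed to 12.8 in it, with RGS5 at 3.19 and ACTA2 at 2.92, and their part in its values was not tested. Cluster 4 (66 cells; 16, 50 and 0) was led by TLL1, IL6, ACKR1, ADGRG6 and CCL24, with ACKR1, the chemokine-binding receptor of venules, at 7.95 against 0.685 elsewhere and SELP, P-selectin, at 1.91. Cluster 5 (32 cells; 11, 21 and 0) had the highest summed cell cycle level of the 7 clusters, at 95.7 against 5.16 to 21.4 in the others, with TOP2A, the topoisomerase of dividing cells, at 7.38 and a median of 11164 UMIs.

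Clusters 6 and 7 went against the label. Cluster 6 (26 cells; 17, 9 and 0) was led by SCG3, C3H2orf40, GJD3, PROX1 and TBX1. It held PROX1, the transcription factor of lymphatic endothelium (chromosome 9, 129527704 to 129583693), at 12.4 and PLVAP at only 0.374. Each of its cells still had more UMIs of the blood than of the lymphatic rule genes. Cluster 7 (18 cells; 4, 9 and 5) was led by TMIGD2, KLRB1, CD300C, TNFSF13B, RUNX3 and IL2RA, genes of leukocytes, beside a summed endothelial level of 34.8. Clusters 6 and 7 held 21 of the 199 cells of day 0, 18 of the 215 of day 1 and 5 of the 28 of day 3. Ratios and counts that moved without them are given in both forms where named.

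**Figure D3:**
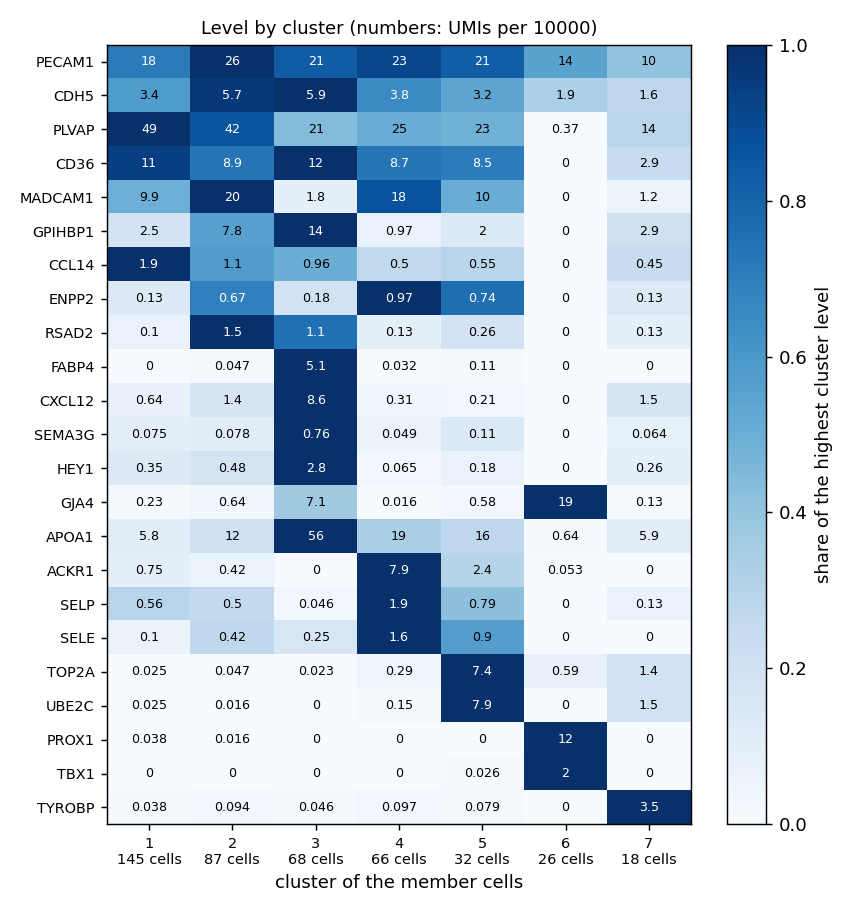
Levels of genes (rows, UMIs per 10000 as numbers, colour as a share of the highest cluster) in the 7 clusters of the 442 cells (columns, with cell numbers). FABP4 and CXCL12 lead in cluster 3, ACKR1 and SELP in cluster 4 and PROX1 in cluster 6, where PLVAP is at 0.374.

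ACKR1, a gene of venules, and GJA4, a gene of arteries, were mostly found in different cells. Among the 59 cells with an ACKR1 UMI, SELP was found in 83.1% against 15.7% of the others, and MADCAM1, the gut addressin, in 98.3% against 70.2%. GJA4 was found in 3.39% of the ACKR1 cells against 31.1% of the others. GPIHBP1, which carries lipoprotein lipase across the capillary wall, was found in 5.88% of the 17 ACKR1 cells of day 0 against 40.7% of the other cells of that day, and in 42.9% of the 42 of day 1 against 76.3%. With every cell thinned to 1000 UMIs, ACKR1 was left in 29 cells, of which 24.1% held SELP against 5.08% of the others and 6.90% held GPIHBP1 against 31.2%. Among the 116 cells with a CXCL12 UMI, GJA4 was found in 54.3% against 17.8%. Among the 30 cells with a PROX1 UMI, PLVAP was found in 9, against 97.3% of the others, and TBX1, a gene the rule used, in 63.3% against 0.243%. GJA4 was found in 73.3% of these 30 cells against 24.0% of the others. Their part in the contrast of GJA4 with ACKR1 was not tested.

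Between ages, a gene is said to have risen or fallen where its level differed at least 2-fold, the Poisson intervals of both levels did not overlap, and at least 30 UMIs were summed over both ages. From day 0 to day 1, 230 of 8110 genes rose (2.84%) and 118 fell (1.45%). From day 1 to day 3, 142 of 6936 rose (2.05%) and 251 fell (3.62%), and from day 0 to day 3, 158 of 5651 rose (2.8%) and 195 fell (3.45%). Each count of list genes below is to be read beside these shares over all genes. Without clusters 6 and 7 the counts were 245 and 91, 124 and 211, and 128 and 144. Scaling by TMM factors, which allow for composition, lowered log2 ratios of day 3 to day 1 by 0.15 and to day 0 by 0.15, and shifted the share of higher calls from 36.1% to 22.8% and from 44.8% to 27.5%. A mean over cells in place of the sum gave 49.0% for day 3 against day 1. Day 3 rests on 28 cells and 189364 UMIs, against 1206353 and 1819686, and both comparisons with day 3 share that library.

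Some genes of capillaries rose, while the list as a whole summed to 54.8, 49.8 and 54.0 on days 0, 1 and 3. GPIHBP1 (chromosome 4, 1253401 to 1256921) had levels of 2.12, 6.07 and 6.71 on days 0, 1 and 3, and was found in 37.7%, 69.8% and 71.4% of the cells against 0.46%, 0.72% and 0.07% of the leukocytes. Its level rose 2.86-fold from day 0 to day 1 (95% interval 2.49 to 3.29), and the ratio of day 3 to day 1 was 1.11. With every cell thinned to 1000 UMIs it was found in 15.6%, 41.4% and 39.3%. MEOX1, a homeobox factor (chromosome 12, 19431397 to 19452430), had 0.0663, 0.286 and 1.00, and rose 4.31-fold (2.03 to 10.5) and then 3.51-fold (1.96 to 6.04). TCF15, a helix-loop-helix factor of capillary endothelium, had 0.796, 0.945 and 2.01, and rose 2.12-fold from day 1 to day 3 (1.45 to 3.03), which became 1.92 under TMM. The share of cells with TCF15 did not rise from day 1 to day 3 in the same way. It was 30.7%, 38.6% and 39.3%, and 10.6%, 11.2% and 3.57% with every cell thinned to 1000 UMIs. The receptor of apelin, APLNR, had 1.72, 2.28 and 3.54.

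In all, 2 of 9 capillary genes rose from day 0 to day 1, 2 of 9 from day 1 to day 3 and 3 of 8 from day 0 to day 3, and none fell. Over all genes 2.84%, 2.05% and 2.8% rose in these comparisons. The median log2 ratios were -0.01, 0.64 and 0.18, against 0.03, -0.01 and 0.02 over all genes. CD36, a scavenger receptor for fatty acids, was at 10.9, 7.79 and 8.82, and BTNL9, a capillary surface protein, at 1.94, 1.93 and 1.58. These did not pass the limits.

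Of the lipid uptake list, FABP4 (chromosome 4, 55096400 to 55101209) had levels of 0.580, 0.599 and 2.75, in 5, 14 and 7 cells. A single cell gave 56 of its 70 UMIs on day 0, 82 of 109 on day 1 and 23 of 52 on day 3. The summed level was 4.58-fold higher on day 3 than on day 1 (3.23 to 6.44), and all of its 52 UMIs of day 3 were in cluster 3. Within cluster 3 its level was 3.90, 4.62 and 13.0, over 35, 24 and 9 cells. SCARB1, the receptor of high-density lipoprotein, had 1.60, 2.25 and 0.951 and fell to 0.422 of day 1 on day 3 (0.248 to 0.675). FABP5, a related carrier, was the most abundant of these at 80.4, 69.2 and 87.7.

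APOA1, the main protein of high-density lipoprotein, had levels of 11, 20.4 and 26.2 and was 2.38-fold higher on day 3 than on day 0 (2.14 to 2.64). It was found in 72.4%, 88.8% and 82.1% of the cells. Barcodes with 100 UMIs or fewer, which hold mostly free RNA, had APOA1 at 12.6, 28.3 and 0.249, and leukocytes at 0.693, 1.07 and 0.0231, so on day 3 the level in the endothelial cells stood far above both. Within cluster 3 it was 38.2, 63.0 and 102, and over clusters 1 and 2 it was 5.32, 11.5 and 7.87.

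Several genes by which venules bind leukocytes rose on day 1 and were lower again on day 3. SELE, E-selectin (chromosome 4, 81289061 to 81299657), had levels of 0.0332, 0.940 and 0.106. It rose 28.3-fold from day 0 to day 1 (10.9 to 105), and on day 3 it was at 0.112 of day 1 (0.0135 to 0.412). ICAM1, the ligand of leukocyte integrins, had 0.937, 2.21 and 0.264, and rose 2.36-fold (1.91 to 2.93) before it fell to 0.120 (0.0386 to 0.281). VCAM1, the ligand of the integrin VLA-4, had 0.0332, 0.269 and 0.0528 and rose 8.12-fold on day 1 (2.98 to 31.0). By level, the library of day 1 was thus the highest for SELE and VCAM1. The intervals of VCAM1 on days 1 and 3 overlapped, so its fall did not pass the limits. The order of days 0 and 3 was not resolved, and SELE was found in only 3 and 2 cells on those days.

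ENPP2, which makes lysophosphatidic acid in venules that recruit lymphocytes, had 0.0663, 0.720 and 0.634 and rose 10.9-fold on day 1 (5.35 to 25.7). MADCAM1 (chromosome 2, 77784610 to 77789036) was the most abundant of the homing genes, at 7.83, 14.0 and 7.55. Its ratios of 1.79 (1.66 to 1.93) and 0.538 did not reach 2-fold. PODXL, a sialomucin of the luminal surface, had 2.21, 1.46 and 3.12 and rose 2.13-fold from day 1 to day 3 (1.58 to 2.84), or 1.92-fold under TMM. Of 14 adhesion and homing genes 5 rose (4 without clusters 6 and 7) and 0 fell on day 1, and of 13 counted for day 3 against day 1, 1 rose and 3 fell. Over all genes 2.84% rose on day 1, and 2.05% rose and 3.62% fell from day 1 to day 3.

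ACKR1 (chromosome 4, 91224089 to 91225610) had levels of 1.53, 2.67 and 0, in 17, 42 and 0 cells. With 3 UMIs in place of its 0, it was 16.8-fold lower on day 3 than on day 1 and 9.63-fold lower than on day 0. These folds are not limits. The 0 of 28 cells allows a share of up to 12.3%, against 8.54% and 19.5% on days 0 and 1. SELP had 0.456, 0.929 and 0.264 and fell to 0.284 of day 1. NR2F2, the transcription factor of venous identity, had 0.887, 1.64 and 0.739 and fell to 0.450, which was 0.529 without clusters 6 and 7 and turned to 1.12 in clusters 1 and 2 only. Of the venous list, 3 of 9 genes rose on day 1, with a median log2 ratio of 0.81 against 0.03 over all genes, and 4 of 8 (3 without clusters 6 and 7) fell from day 1 to day 3, with a median of -1.48 against -0.01. Cluster 4 held 8.04% of the cells on day 0, 23.3% on day 1 and none of the 28 on day 3, and its venous list summed to 17.4 and 17.5 on days 0 and 1. The number of cells of that kind and the RNA per cell cannot be told apart in the sums of any of these comparisons.

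Chemokines and cytokines are given next. CCL2, which attracts monocytes, had levels of 0.879, 3.48 and 0.370, and rose 3.96-fold (3.22 to 4.91) before it fell to 0.106 (0.0426 to 0.220). IL6, an inflammatory cytokine, had 0.0249, 0.890 and 0 and rose 35.8-fold (12 to 175). With 3 UMIs in place of its 0, day 3 was 5.62-fold lower than day 1. IL33, an alarmin of endothelial nuclei, had 1.15, 2.63 and 1.16 and rose 2.28-fold. The fall of IL33 to 0.442 became 0.516 without clusters 6 and 7 and turned to 1.10 in clusters 1 and 2 only.

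CXCL10 (chromosome 8, 71693641 to 71695948), an interferon-induced attractant of T cells, had levels of 0.0249, 3.86 and 0, with 3, 703 and 0 UMIs. Its 703 UMIs of day 1 came from 23 cells, and 251 from 1 cell. The ratio of day 1 to day 0 was 155 (52.9 to 755), and 425 (76.1 to 16818) without clusters 6 and 7, where day 0 held 1 UMI. In all cells, with 3 UMIs in place of its 0, day 3 was 24.4-fold lower than day 1, which is not a limit. The 0 of 28 cells on day 3 allows a share of up to 12.3%, against 10.7% on day 1. Fibroblasts of the same libraries had it at 3.95, 12.9 and 5.13, leukocytes at 0.190, 4.80 and 0.0972, and the barcodes of 100 UMIs or fewer at 2.34 on day 1. CXCL9, a related ligand, was found on day 1 alone, in 5 cells.

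CXCL12 (chromosome 14, 91516383 to 91543857) ran the other way, with 2.59, 0.868 and 5.12. It fell to 0.336 on day 1 (0.275 to 0.408) and rose 5.90-fold on day 3 (4.53 to 7.64). Within cluster 3 its level was 13.6, 2.36 and 20.01, while over clusters 1 and 2 it was 0.879, 1.04 and 1.24. The order of the 3 libraries in the sum was thus that of cluster 3. The pericyte and smooth muscle list summed to 3.96, 22.5 and 0 in cluster 3 on these days, and its part in the CXCL12 values was not tested. ACKR3, a scavenger of CXCL12, was at 1.28, 0.879 and 0.581. CCL5, a T cell attractant, was at 1.51, 0.390 and 0.211, below the 9.42, 4.10 and 1.88 of the barcodes with 100 UMIs or fewer. Of 11 chemokine genes 5 rose and 2 fell on day 1, and of 10 counted 1 rose and 4 fell on day 3 against day 1. These counts were 5 and 3, and 1 and 3, without clusters 6 and 7. The shares of all genes that rose and fell were 2.84% and 1.45% on day 1, and 2.05% and 3.62% on day 3 against day 1.

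Interferon-stimulated genes were counted in all 3 comparisons. Of 17 counted from day 0 to day 1, 10 rose (9 without clusters 6 and 7) and 0 fell, with a median log2 ratio of 1.20 against 0.03 over all genes. Against day 0, 7 of 14 had risen on day 3 and 0 had fallen, with a median of 1.42 against 0.02. From day 1 to day 3, 1 rose and 2 fell (4 and 2 without clusters 6 and 7).

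IFI6, a mitochondrial survival protein induced by interferon (chromosome 6, 84852782 to 84858072), had levels of 19.8, 31.6 and 57.3. It was 2.90-fold higher on day 3 than on day 0 (2.69 to 3.11), at 1.60-fold and 1.81-fold for the 2 steps. Over clusters 1 and 2 it was 21.9, 40.5 and 48.4, and in cluster 3 it was 35.8, 49.5 and 119. Leukocytes of the same libraries had 4.99, 6.66 and 2.73 and fibroblasts 4.82, 5.77 and 13.5, so the endothelial cells had the highest level of these 3 classes each day. The order of the 3 libraries in the endothelial cells was also that of MX1, an antiviral GTPase, with 0.414, 1.03 and 1.74.

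OAS2, an RNA sensor, had 0.630, 1.62 and 1.58 and rose 2.56-fold. BST2, which tethers budding virus, had 0.0497, 0.302 and 0.792 and rose 6.08-fold and then 2.62-fold. Neither gene returned to the level of day 0. GBP1, a GTPase induced by interferon gamma, had 0.174, 1.07 and 0.475, and rose 6.12-fold before it fell to 0.446. These ratios were 13.8 and 0.243 without clusters 6 and 7. Free RNA of the same libraries had GBP1 at 0.219, 2.16 and 0.503, and leukocytes at 0.464, 2.28 and 0.503. Both lay above the endothelial level on each day, and both were also highest on day 1. The part of free RNA in the GBP1 values was not tested. IRF1, a factor of the interferon gamma response, had 2.25, 5.58 and 0.792. It rose 2.48-fold (2.16 to 2.84) and then fell to 0.142 (0.0791 to 0.235).

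The targets of NF-kB, the transcription factor of inflammation, were highest on day 1. Of 12 counted, 6 rose and 0 fell on day 1, with a median log2 ratio of 1.14, and 0 rose and 5 fell from day 1 to day 3, with a median of -0.96. Leaving out clusters 6 and 7 gave 7 that rose and 6 that fell. NFKBIA, its inhibitor, had levels of 1.24, 3.41 and 1.43 and rose 2.74-fold. BIRC3, a survival protein, had 1.5, 4.54 and 1.85 and rose 3.03-fold before it fell to 0.407. CXCL2, a neutrophil attractant, had 0.348, 1.75 and 0.106, and rose 5.04-fold before it fell to 0.0602 (0.00726 to 0.219), which was 0.111 without clusters 6 and 7. The summed level of the list was 10.0, 23.8 and 7.29 in the endothelial cells, 5.88, 22.5 and 6.95 in fibroblasts, 14.3, 31.6 and 9.55 in leukocytes and 10.1, 28.6 and 12.9 in the barcodes with 100 UMIs or fewer. The library of day 1 was the highest of the 3 in each.

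Genes of antigen presentation were compared by list and by cluster. Over clusters 1 and 2 the MHC class I list summed to 94.96, 129.5 and 143.1 on days 0, 1 and 3 and the class II list to 40.4, 63.4 and 64.5. In cluster 3, which had 9 cells on day 3, the class I list summed to 108.8, 100.7 and 230.8. Of the MHC class I list, 1 of 13 genes rose on day 1, 1 of 12 from day 1 to day 3 and 4 of 12 from day 0 to day 3, and none fell. The last 2 counts were 3 and 3 without clusters 6 and 7. Over all genes 2.84%, 2.05% and 2.8% rose. SLA-2, a classical class I gene (chromosome 7, 22916747 to 22959405), had levels of 18.1, 17.8 and 37.9 and rose 2.13-fold from day 1 to day 3 (1.96 to 2.31). Under TMM this was 1.92. B2M, the light chain of class I, had 28.4, 35.1 and 56.2, and its ratio of day 3 to day 0 of 1.98 (1.85 to 2.12) did not pass. SLA-3 had 8.32, 10.2 and 19.2 and rose 2.30-fold from day 0 to day 3. SLA genes are alike in sequence, and how their shared reads were divided was not checked. The list summed to 80.0, 97.2 and 149 in the endothelial cells, 14.3, 20.03 and 25.4 in fibroblasts and 50.7, 66.0 and 32.0 in leukocytes.

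Of the MHC class II genes, 5 of 7 rose from day 0 to day 3, and 1 of 7 without clusters 6 and 7. SLA-DRA, the chain shared by DR molecules, had 5.59, 9.65 and 15, and was 2.68-fold higher on day 3 than on day 0 (2.33 to 3.09). CD74, the invariant chain, had 15.1, 14.8 and 32.4. Barcodes with 100 UMIs or fewer had CD74 at 11.6, 14.7 and 31.5 and SLA-DRA at 5.23, 7.11 and 8.77. The endothelial level of CD74 was thus close to that of free RNA on each day, and the part of free RNA in the class II values was not tested.

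Immediate early genes, which cells switch on within minutes of a stimulus or of handling, fell almost together on day 3. Of 16 counted, 2 rose and 0 fell on day 1, with a median log2 ratio of 0.36. From day 1 to day 3, 0 rose and 15 fell, with a median of -2.75, and from day 0 to day 3, 0 rose and 14 fell, with a median of -2.32 (16 and 15 fell without clusters 6 and 7). FOS (chromosome 7, 98449508 to 98451971) had levels of 14.1, 19.4 and 2.27 and fell to 0.117 of day 1 on day 3 (0.0846 to 0.158). EGR1 (chromosome 2, 140440829 to 140445302), a zinc finger factor, had 7.36, 8.10 and 0.528 and fell to 0.0652 (0.0312 to 0.120), or 0.0386 without clusters 6 and 7. JUNB had 17.1, 20.3 and 3.17 and fell to 0.156. JUND, a family member that many cells keep at a steady level, had 8, 8.41 and 4.65, and its ratio of 0.553 did not pass.

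FOS was found in 75.9%, 87.4% and 32.1% of the endothelial cells and in 76.8%, 62.4% and 44.9% of leukocytes. Thinned to 1000 UMIs, these shares were 48.7%, 62.8% and 10.7%, and 48.3%, 31.4% and 19.0%. The summed level of the list was 99.8, 128 and 23.3 in the endothelial cells, 50.5, 105 and 12.8 in fibroblasts, 91.3, 70.3 and 37.5 in leukocytes, 94.1, 86.9 and 48.4 in epithelial cells and 77.6, 58.9 and 52.6 in the barcodes with 100 UMIs or fewer. The library of day 3 was thus the lowest of the 3 in each of these. Within the endothelial cells it was 107, 113 and 11.4 over clusters 1 and 2 and 77.3, 162 and 35.0 in cluster 3. Whether the time or manner of dissociation differed between libraries was not tested.

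**Figure D4:**
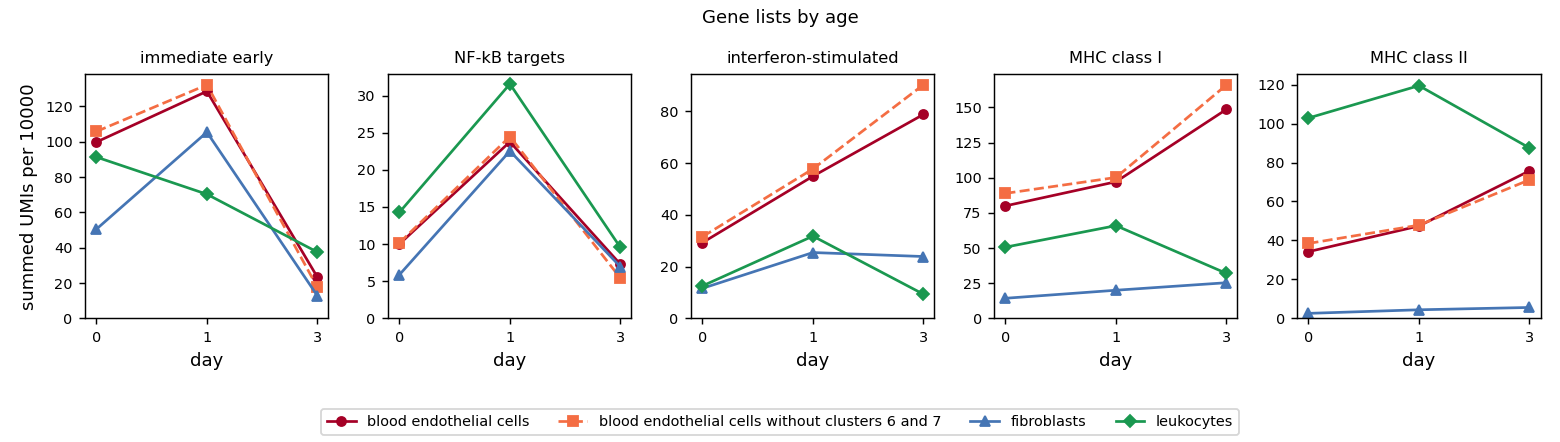
Summed levels (vertical axes, UMIs per 10000) of 5 gene lists on days 0, 1 and 3 (horizontal axes, evenly spaced, 1 library each) in blood endothelial cells, the same without clusters 6 and 7, fibroblasts and leukocytes. Immediate early genes are lowest on day 3 in each, NF-kB targets highest on day 1, and MHC class I reaches 149 in the endothelial cells on day 3 against 32.0 in leukocytes.

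Of the flow-responsive list, 0 of 9 genes passed on day 1, 3 of 9 fell from day 1 to day 3 and 2 of 9 from day 0 to day 3, and none rose. Over all genes 3.62% fell from day 1 to day 3 and 3.45% from day 0 to day 3. KLF2, the main flow-responsive factor, had levels of 9.15, 11.5 and 4.65 and fell to 0.405 of day 1, while KLF4 had 2.65, 2.38 and 0.951 and fell to 0.399. With a mean over cells these were 0.514 and 0.565 and did not pass. Genes of clotting and of its reversal follow. THBD, thrombomodulin, had 1.19, 1.07 and 0.264 and was at 0.223 of day 0 on day 3 (0.0712 to 0.532). PLAU, urokinase, had 2.06, 1.47 and 0.370 and fell to 0.251 of day 1. PLAT, tissue plasminogen activator, had 5.40, 3.84 and 1.90 and was at 0.352 of day 0. VWF, which binds platelets, had 6.46, 4.62 and 2.96 and was at 0.458 of day 0 (0.343 to 0.601).

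Of the coagulation and fibrinolysis list, 1 of 12 rose and 1 fell on day 1, 0 of 11 rose and 4 fell from day 1 to day 3, and 0 of 12 rose and 4 fell from day 0 to day 3. When clusters 6 and 7 were left out, 0 fell on day 1 and 3 from day 1 to day 3. The shares of all genes that fell were 1.45%, 3.62% and 3.45% in the 3 comparisons, and 2.84% rose on day 1. NOS3, which makes nitric oxide, was at 0.398, 0.659 and 0.422, and EDN1, the constrictor endothelin, at 0.663, 0.830 and 0.528. ADM, adrenomedullin, had 2.34, 1.59 and 0.211 and was at 0.0904 of day 0 on day 3 (0.0245 to 0.234), and 0.218 without clusters 6 and 7. RAMP3, a subunit of its receptor, had 1.24, 0.495 and 0.475 and fell to 0.400 on day 1.

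**Figure D5:**
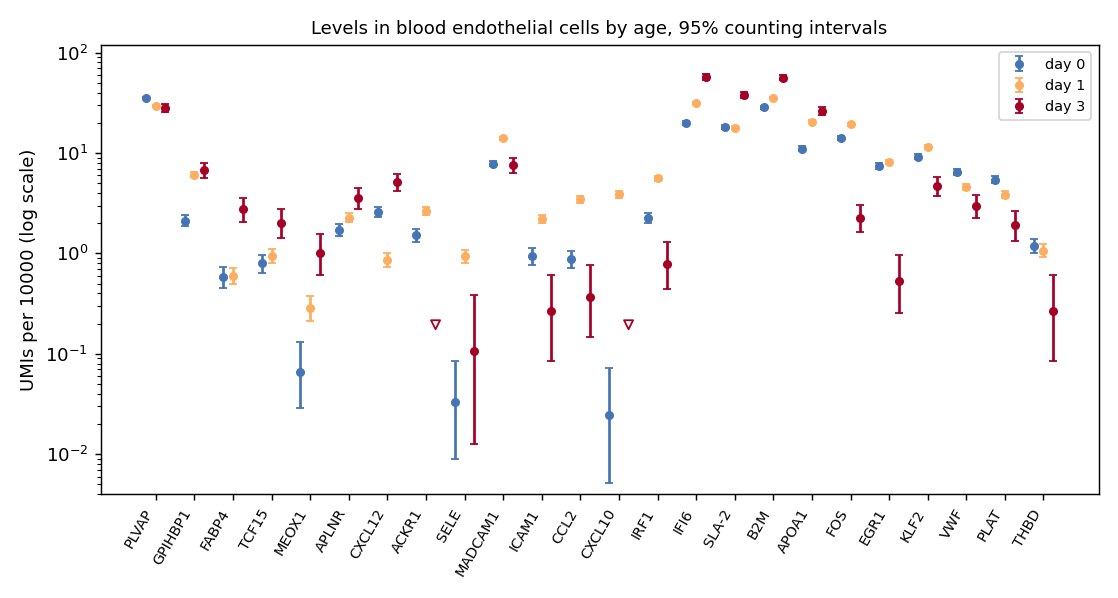
Levels (vertical axis, UMIs per 10000, log scale) of named genes (horizontal axis) in the blood endothelial cells of days 0, 1 and 3, with exact 95% Poisson intervals. Open triangles mark the upper limit where 0 UMIs were found, as for ACKR1 and CXCL10 on day 3, and FOS and EGR1 are lowest on day 3 while GPIHBP1 is lowest on day 0.

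Of the VEGF and TIE pathway, by which vessels grow and hold together, 1 of 12 genes fell on day 1, 0 of 11 passed from day 1 to day 3 and 1 of 11 (0 without clusters 6 and 7) fell from day 0 to day 3. The median log2 ratios were -0.34, 0.02 and -0.49, against 0.03, -0.01 and 0.02 over all genes, of which 1.45%, 3.62% and 3.45% fell. None of 9, 8 and 8 Notch pathway genes passed in the 3 comparisons. ANGPT2, the ligand that loosens vessels, had levels of 1.48, 0.555 and 0.422 and fell to 0.374 on day 1. Without clusters 6 and 7 its levels were 0.498, 0.384 and 0.458 and it did not pass, since cluster 6 held it at 8.56. GJA4 had 3.1, 1.95 and 1.21, and 1.32, 1.37 and 1.5 without these clusters. KCNE3, a potassium channel subunit of sprouting tip cells, had 0.539, 0.181 and 0.370 and fell to 0.337 on day 1 (0.214 to 0.519).

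Of the BMP and TGF-beta pathway, ID1, a direct BMP target, had 5.79, 2.04 and 5.02. It fell to 0.352 on day 1 and rose 2.46-fold on day 3. TGFBR3, the co-receptor betaglycan, had 0.854, 0.885 and 0.264 and fell to 0.298, or 0.165 without clusters 6 and 7. With each cell thinned to 1000 UMIs the TGFBR3 ratio was 1.10, on few counts, so its direction there was not resolved. SOX17, an arterial factor, had 3.28, 4.14 and 1.53 and fell to 0.370, or 0.551 with a mean over cells. PDGFD, a growth factor for mural cells, had 0.605, 0.297 and 1.37, and rose 4.63-fold from day 1 to day 3.

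Of 14 basement membrane genes, 0 rose or fell on day 1, 1 rose from day 1 to day 3 and 0 passed from day 0 to day 3. From day 1 to day 3, 2.05% of all genes rose. The median log2 ratios to day 3 were 0.40 and 0.47, against -0.01 and 0.02 over all genes. COL4A1, the collagen chain of vessel walls, was at 29.3, 27.0 and 37.6, and SPARC, a matrix protein, at 3.03, 3.41 and 5.91. COL15A1, which ties the membrane to the tissue around it, had 3.18, 2.38 and 4.81 and rose 2.02-fold (1.59 to 2.54), which was 1.82 under TMM. Of 12 junction genes 1 rose on day 1, where 2.84% of all genes rose. It was CLDN5, the main claudin of endothelium, with 0.191, 0.423 and 0.106 and a ratio of 2.22 (1.38 to 3.71). CAV1, the coat protein of caveolae, was at 14.3, 17.5 and 16.9. None of 25 cytosolic ribosomal protein genes passed in any comparison.

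Several genes of other lists and of the ends of the ranking by ratio are given here. CEBPD, an inflammatory transcription factor, had levels of 5.03, 10.8 and 1.58, and rose 2.15-fold before it fell to 0.147. MT-2B, a metallothionein that binds zinc and copper, had 1.43, 6.48 and 0.264, and rose 4.52-fold before it fell to 0.0408. SLC2A3, a glucose transporter, had 1.70, 2.68 and 0.264 and fell to 0.0985. PARP14, an interferon-induced ADP-ribosyl transferase, had 0.332, 0.670 and 1.80, and was 5.41-fold higher on day 3 than on day 0. SLPI, a protease inhibitor of mucosal surfaces, had 1.25, 1.59 and 5.70, in 11 cells of day 3, and was 4.56-fold higher than on day 0 (3.53 to 5.87). ELN, elastin, had 0.216, 0.220 and 0.792 and rose 3.6-fold from day 1. HELLS, a chromatin remodeller of dividing cells, had 0.133, 0.154 and 0.845 and rose 5.49-fold.

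Genes of the cell cycle had a mixed order. UBE2C, which marks mitotic proteins for destruction, had levels of 0.854, 1.26 and 0.0528, and TOP2A 0.738, 1.35 and 0.106. Of 20 counted, 2 rose and 0 fell on day 1 (8 and 0 without clusters 6 and 7), and 1 rose and 7 fell from day 1 to day 3 (1 and 6). Cluster 5, where the list was highest, had no cell of day 3. Over clusters 1 and 2 the list summed to 6.57, 6 and 13.4, and the ratios of day 3 to day 1 turned to 2.03 for TOP2A and 6.10 for UBE2C. On day 3 UBE2C had 1 UMI over all cells and TOP2A was found in 2 cells, so the directions of both were not resolved.

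Some genes at the ends of the ranking were markers of other cells. Of the 10 genes lowest on day 1 relative to day 0, 8 were higher in the barcodes with 100 UMIs or fewer than in the endothelial cells on both days, among them TFF3, a goblet cell peptide, with 1.43 and 0.242 against 68.0 and 15. PLAC8, a gene of lymphoid and myeloid cells, had 0.0746, 0.330 and 2.90 and was 38.9-fold higher on day 3 than on day 0. Without clusters 6 and 7 its levels were 0.0488, 0.130 and 0.588. TYROBP, an adaptor of myeloid and NK receptors, had 0.158, 0.154 and 1.48, and 0.0488, 0.0885 and 0 without these clusters. Without them the leading genes from day 1 to day 3 were CXCL12 (6.94-fold), SLC6A6 (6.74-fold), HELLS (5.96-fold), EPHX1 (5.78-fold), LOC100152327 (5.71-fold), PDGFD (5.33-fold) and FABP4 (5.28-fold). LOC100152327 was at 59.0 in the leukocytes of day 3 and at 53.1 in the barcodes with 100 UMIs or fewer, against 1.11 in the endothelial cells without these clusters. HELLS was at 0.815 in those barcodes of day 3, against 0.915 in the endothelial cells without these clusters.

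Most marker lists of other cells were low in the blood endothelial cells but differed between ages. The epithelial list was not low, and most of it was APOA1. Myeloid genes summed to 0.539, 0.945 and 2.80 on days 0, 1 and 3, and to 0.459, 0.797 and 0.131 without clusters 6 and 7, against 16.6, 51.5 and 1.53 in leukocytes. Pericyte and smooth muscle genes summed to 1.68, 4.58 and 1.27, and 4 of 6 counted rose on day 1 (3 without clusters 6 and 7) while 3 of 5 fell from day 1 to day 3. The epithelial list summed to 13.4, 21.3 and 26.3, of which APOA1 gave 11, 20.4 and 26.2. B and plasma lineage genes summed to 1.05, 1.18 and 2.27, and T and NK genes to 2.08, 0.561 and 0.581. Of 3 fibroblast genes counted on day 1, 2 rose and 1 fell, with a median log2 ratio of 3.45. Of 9 lymphatic endothelial genes, 4 fell on day 1 (2 without clusters 6 and 7), with a median of -1.16. From day 0 to day 3, 3 of 4 fell (2 without these clusters), with a median of -2.57. The part of these other cells in the endothelial values was not tested beyond leaving out clusters 6 and 7.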

How the data were processed

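Single-cell libraries of the piglet ileum, 1 per age and 6 in all, were analysed from the deposited matrices, which hold raw UMI counts per gene and barcode. The authors made these counts with Cell Ranger 3.1.0 and STAR against susScr11, per the submitters' processing notes, and the values were not normalized. The methods give 5 piglets per age and do not say in words how their cells were combined. Reads of near-identical genes were divided, or dropped, by that counting, and this was not examined here.

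Cells were picked by the rule given in the report, from barcodes with at least 1000 UMIs and 500 genes. The rule, the gene lists and the members were chosen with earlier results of these data known. Of 514 list symbols, 499 were in the files, and all 20648 symbols of the files matched the reference table of Sscrofa11.1, from which positions were taken. Lymphatic endothelial cells were barcodes with at least 3 UMIs of the lymphatic rule genes and at least as many as of the endothelial ones, fibroblasts had at least 20 collagen UMIs, leukocytes at least 2 PTPRC UMIs and epithelial cells at least 10 epithelial UMIs, each in 1 class only. No doublet caller was run, and the limits on genes of other cell types were the only filter against mixed barcodes.

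Levels are UMIs summed over the cells of a library per 10000, with exact Poisson intervals. Shares have Clopper-Pearson intervals, and ratios conditional binomial intervals, all at 95%. No test between ages was possible with 1 library per age. A count of 0 was set to 3 counts to give a ratio, which is not the limit of its 95% interval. Free RNA was read from barcodes with 100 UMIs or fewer. Named genes were those of the lists, for each pair of ages the 10 highest and 10 lowest ratios among genes past 2-fold that were found in 10% or more of the cells of the higher age, the 20 genes with the highest ratio to other barcodes among those found in 25% or more, and the leading 10 of each cluster. Clusters came from 2000 variable genes, 20 principal components, 15 neighbours and Leiden resolution 0.5 (alternatives 0.3 and 1), with the rule genes left out. Python 3.11.15, numpy 2.4.6, scipy 1.17.1, pandas 2.3.3, scanpy 1.11.5, leidenalg 0.10.2, igraph 0.11.9, matplotlib 3.10.9 and, for TMM factors alone, edgeR 4.0.16 in R 4.3.3 were used. Some genes of the lists are not reported here.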

Additional observations from a re-analysis of the deposited data

Results flagged for a closer look

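On day 7, an age used in no comparison here, 4 cells met the rule, and 2 of them held 42 and 68 UMIs of the 24 endothelial genes.

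Blood endothelial cells and fibroblasts of the same libraries moved in opposite directions for the genes that follow, each past 2-fold with intervals apart in both classes. The difference between the classes was not tested. Each class has 1 library per age, so no replicate stands behind either ratio.

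From day 0 to day 1, PDPN, podoplanin, was at 0.345 of day 0 in the endothelial cells and at 3.94 in fibroblasts. From day 1 to day 3, ACTA2, smooth muscle actin, had 0 UMIs on day 3 in the endothelial cells. With 3 counts in place of 0 this gives 0.215, or 4.65-fold lower, against 2.26 in fibroblasts. RGS5, a pericyte gene, likewise had 0 UMIs, giving 0.209, or 4.79-fold lower, against 2.74. TYROBP, a leukocyte adaptor, was at 9.61 against 0.393 from day 1 to day 3 and at 9.39 against 0.309 from day 0 to day 3. Its level in the endothelial cells without clusters 6 and 7 was 0.0488, 0.0885 and 0 on days 0, 1 and 3.

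From day 0 to day 3, the endothelial ratios were 0.285 for ANGPT2 (29.9 in fibroblasts, from a level of 0.0126 on day 0), 0.352 for PLAT (2.75) and 0.396 for DDAH2, which breaks down an inhibitor of nitric oxide synthesis (2.43). Without clusters 6 and 7 ANGPT2 had levels of 0.498 and 0.458 on days 0 and 3 and did not pass. APOA1 was at 2.38 in the endothelial cells and 0.110 in fibroblasts. Genes of dividing cells had ratios of 0.0741 for NUSAP1 (12.2 in fibroblasts), 0.494 for STMN1 (2.42), 0.143 for TOP2A (14.0) and 0.0619 for UBE2C (24.7). Without clusters 6 and 7, PDPN had 0 UMIs on all 3 days in the endothelial cells, and DDAH2 (0.509), STMN1 (0.624) and TOP2A (0.223) no longer passed. In clusters 1 and 2 only the ratios of day 3 to day 0 were 1.88 for NUSAP1, 1.03 for STMN1, 5.64 for TOP2A and 5.64 for UBE2C. NUSAP1 and UBE2C had 1 UMI each over all cells of day 3, and TOP2A was found in 2 of them. The directions for NUSAP1, TOP2A and UBE2C were thus not resolved. Cluster 5, where the cell cycle list was highest (95.7), had no cell of day 3. In the day 3 cells of clusters 1 and 2 the list summed to 13.4.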

How the results depend on the processing

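No paired analysis was possible because each age has 1 library, and leaving out a replicate was not possible for the same reason. Over 285 ratios, 3040 of 3679 recomputed values kept their direction and side of the limits, 601 no longer passed and 38 reversed. Of 6460 recomputed levels over 510 gene and age pairs, 5525 moved within their interval and 935 beyond it. The settings without clusters 6 and 7, with clusters 1 and 2 only, with at least 3 UMIs of the 24 endothelial genes, and with free RNA subtracted without APOA1 were chosen after seeing the data. Free RNA estimated from the epithelial list took 20.1% and 32.5% of the UMIs of days 0 and 1 but came to 704.864% of the profile on day 3, so it could not be used there. Without APOA1 the same list gave 4.44%, 2.395% and 3.03% on days 0, 1 and 3. Day 3 holds 28 cells, so its low genes were not resolved and a level of 0 is a limit.

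The share of day 0 was 1.57% with limits of 500 UMIs and 300 genes. Genes that rose and fell from day 0 to day 1 numbered 120 and 34 with at least 100 summed UMIs, 391 and 229 at a fold of 1.5, and 40 and 20 with each cell thinned to 1000 UMIs, and 65 fell in clusters 1 and 2 only. From day 1 to day 3, 53 rose with at least 100 summed UMIs, 235 without a filter, 229 with a mean over cells and 93 under TMM factors. They were 67 up and 152 down in clusters 1 and 2, and 22 and 42 after thinning. From day 0 to day 3, 61 rose with at least 100 summed UMIs, 247 without a filter, 92 in clusters 1 and 2 and 100 under TMM factors, and thinning gave 27 and 34.

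Some ratios reversed, and the cause was not tested. From day 0 to day 1 these were RGS5 (0.825) with the stricter exclusion of other cells, LOC100152327 (0.570) without clusters 6 and 7, C1S (0.463) and TYMS (0.463) after thinning, and, in clusters 1 and 2 only, ACTA2 (0.308), CXCL12 (1.19), LOC100152327 (0.191), LOC595122 (0.462) and TYMS (0.504). From day 1 to day 3 they were AIF1 (0.905 with the stricter exclusion, 0.852 without clusters 6 and 7, 0.779 with at least 3 UMIs of the 24 genes), EPHB6 (0.923 without clusters 6 and 7), UCP2 (0.909 with at least 3 UMIs of the 24 genes), TGFBR3 (1.10) and TPX2 (1.18) after thinning, and CENPF (1.11) with a mean over cells. In clusters 1 and 2 only they were HMGB2 (2.73), IL33 (1.10), NR2F2 (1.12), STMN1 (1.11), TOP2A (2.03), TPX2 (10.2) and UBE2C (6.10). From day 0 to day 3 they were AIF1 (0.851 and 0.912 in the stricter and the 24-gene settings), TNFAIP3 (0.945) without the top 5% of cells by UMIs, CTSW (0.837), EPHB6 (0.479) and GJA4 (1.14) without clusters 6 and 7, UCP2 (0.521) with at least 3 UMIs of the 24 genes and RAMP3 (1.02) after thinning. In clusters 1 and 2 only they were EPHB6 (0.470), ISG15 (0.922), NUSAP1 (1.88), STMN1 (1.03), TOP2A (5.64) and UBE2C (5.64).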

Other observations

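The genes described here lie outside the groups above. CLEC3B, tetranectin, a plasminogen-binding protein, was among the 20 genes with the highest ratio to other barcodes, at 30.2, 32.0 and 15.2 on days 0, 1 and 3, with a ratio of 0.475 for day 3 to day 1 (95% interval 0.420 to 0.534). Without clusters 6 and 7 it did not pass. ADM5, a peptide of the adrenomedullin family, had 0.0746, 1.31 and 0.687, in 6, 60 and 7 cells, and rose 17.5-fold on day 1 (9.08 to 38.8). STX11, a syntaxin of vesicle fusion, had 0.0912, 0.731 and 0.158, and rose 8.02-fold before it fell to 0.217 of day 1 (0.0441 to 0.647). ADM5 and STX11 were highest on day 1. Leukocytes had STX11 at 0.469, 1.34 and 0.220, and free RNA had it at 0.130, 0.502 and 0.166, with day 1 the highest in each. The part of free RNA and of leukocytes in the STX11 values was not tested.

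EPHX1, an epoxide hydrolase, had 0.439, 0.126 and 0.634, with a fall to 0.288 on day 1 (0.168 to 0.478) and a rise of 5.01-fold on day 3 (2.27 to 10.5). SLC6A6, the taurine transporter, had 0.274, 0.137 and 0.739 and rose 5.38-fold from day 1 to day 3 (2.59 to 10.8). PPIC, a cyclophilin, had 0.158, 0.231 and 1.00 and was 6.37-fold higher on day 3 than on day 0 (3.19 to 12.7), in 19 and 11 cells. CRYAB, a small heat shock protein, had 0.348, 0.0495 and 0.106 and fell to 0.142 on day 1 (0.0608 to 0.296). HOPX, a homeodomain protein that binds no DNA, had 3.01, 1.24 and 0.0528, and 0.205, 0.195 and 0 without clusters 6 and 7.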
